A study of Mus musculus with 2 samples.

Results

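The 10 genes described here encode interferon-inducible GTPases of 2 families, and they were chosen by symbol from the 32285 genes counted in both libraries. The guanylate-binding proteins (GBPs) were represented by 5 genes, Gbp2, Gbp3, Gbp4, Gbp5 and Gbp7, and the immunity-related GTPases (IRGs) by 5 genes, Iigp1, Irgm1, Irgm2, Igtp and Tgtp2. All 10 symbols were found, and their UMIs (unique molecular identifiers, 1 per captured transcript) numbered 7491 in the kept PBS cells and 19708 in the kept cmExoaCD11b cells.

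GBPs are large GTPases that assemble on the membranes of microbe-holding vacuoles and on bacteria in the cytosol, where they help inflammasome caspases to act. IRGs divide into effectors such as Iigp1 and Tgtp2, which load onto and break such vacuoles, and regulators, Irgm1, Irgm2 and Igtp, which hold the effectors inactive on the membranes of the host cell itself. Both families are best known as products of type II interferon (interferon gamma) signaling, which acts through a gamma-activated site (GAS) in the promoter. Type I interferons, made for example after the receptor STING is activated, act through the interferon-stimulated response element (ISRE). Most of these genes can respond to both types of interferon.

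Tumor-infiltrating cells were profiled by droplet-based 3′ RNA sequencing from mice bearing orthotopic pancreatic tumors of K210 cells, a mouse pancreatic cancer line. The hosts were male C57BL/6J mice 5 to 6 weeks old when obtained, and dosing began on day 7 after implantation. In the PBS group the animals received the buffer alone. In the cmExoaCD11b group they received exosomes of mouse embryonic fibroblasts that held interleukin-12 mRNA and the STING agonist 2′3′-cGAMP (5 µg per mouse) and carried an anti-CD11b antibody on their surface. Cells were taken 48 h after treatment and pooled from 3 mice per group into 1 library, so the libraries give no measure of the spread between mice, and no test between treatments was made. Every interval below is an exact 95% interval for counting error only. It covers neither the spread between mice or libraries nor the unequal spread of UMIs over cells.

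After cell calling and filtering, 6835 PBS cells with 50387917 UMIs and 7073 cmExoaCD11b cells with 62421600 UMIs were kept. The median depths were 3461 and 4103 UMIs per cell, and 16 cell barcodes occurred in both libraries. A cell passed a gate when at least 3 UMIs and at least 0.6 of all gate-marker UMIs belonged to that gate. Cells in the phagocyte gate were split into macrophages and monocytes by which marker list had more UMIs, with ties left ungated. Cells in the T cell gate were CD8 T cells with a UMI of Cd8a or Cd8b1 and none of Cd4, and CD4 T cells in the reverse case. The resulting classes with at least 50 cells in each library numbered 7. These included neutrophils (5079 PBS and 4966 cmExoaCD11b cells), macrophages (443 and 140), monocytes (148 and 138) and B cells (250 and 261). The T cell classes were CD8 T cells (97 and 183), CD4 T cells (89 and 144) and the remaining T cells (51 and 109). The last, called other T cells, held UMIs of neither co-receptor, Cd4 or Cd8, or of both. Of the markers outside the gates, Lck, a T cell kinase, was at 389 to 525 CPM (UMIs of a gene scaled to a total of 1000000 in the class) in the T cell classes and at 1.72 to 57.6 CPM in the rest. S100a8, a neutrophil marker, was at 63321.0 CPM in PBS and 66174.5 CPM in cmExoaCD11b neutrophils. It was at 4801.2 and 5299.7 CPM in monocytes and at 1209.4 and 867 CPM in macrophages. Lyz2 and Itgam separated the myeloid classes less, and Ly6c2 separated monocytes little from neutrophils. Lyz2 was at 6034.5 to 7680.3 CPM and Itgam at 275 to 458 CPM across neutrophils, macrophages and monocytes, and Ly6c2, a monocyte marker, was at 732 and 1179.1 CPM in monocytes, 581 and 751 CPM in neutrophils and 55.8 and 232 CPM in macrophages. The cells left ungated numbered 577 and 894. Cells in the epithelial gate, 34 and 26, carried the transcript Xist at 1937 and 1665 CPM, whereas the Y-linked gene Ddx3y was at 80.9 to 225 CPM in the 7 immune classes and at 2.57 and 4.73 CPM in the epithelial gate.

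Most members lie in a few clusters of the genome, and Iigp1 lies apart from them on a chromosome without another member. In the mouse gene annotation GENCODE M21, build GRCm38, Gbp5, Gbp7, Gbp3 and Gbp2 stand one after another on the plus strand of chromosome 3 between positions 142493978 and 142638008. Gbp4 lies on chromosome 5 at 105115767 to 105139586, minus strand. On chromosome 11 are Irgm1 (48861968 to 48871683) and Tgtp2 (49057194 to 49064206), both on the minus strand, and Igtp (58199556 to 58207591) and Irgm2 (58199618 to 58222782), which overlap on the plus strand. The genome build of the deposited counts is not given in the sources used here, and these positions were used to describe the genes only.

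Promoters from 250 bases before to 50 bases after the start site were available from RefSeq (GRCm38.p6) for 8 members, all but Gbp4 and Iigp1. They were searched on both strands for TTCNNNGAA (GAS) and for the ISRE core GAAANNGAA. The stretches shown here, because they hold the motifs that the known signaling routes of these genes use, run from 40 bases before the first base of the ISRE core match nearest to the start site to 40 bases from it, or to the start site where that came first. Capitals mark the bases of any match to either motif.
Gbp2, chr3:142620565-142620644, plus strand: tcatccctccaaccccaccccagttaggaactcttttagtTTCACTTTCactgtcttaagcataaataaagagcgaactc
Gbp3, chr3:142559966-142560043, plus strand: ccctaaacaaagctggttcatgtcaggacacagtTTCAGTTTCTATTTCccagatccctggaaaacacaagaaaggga
Gbp5, chr3:142496730-142496809, plus strand: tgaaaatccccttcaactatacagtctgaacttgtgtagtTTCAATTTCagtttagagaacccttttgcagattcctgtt
Gbp7, chr3:142530244-142530323, plus strand: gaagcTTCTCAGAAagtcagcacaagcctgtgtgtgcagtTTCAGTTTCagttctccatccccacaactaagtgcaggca
Irgm1, chr11:48871421-48871484, minus strand: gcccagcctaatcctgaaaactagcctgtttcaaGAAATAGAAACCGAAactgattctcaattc
Irgm2, chr11:58214873-58214952, plus strand: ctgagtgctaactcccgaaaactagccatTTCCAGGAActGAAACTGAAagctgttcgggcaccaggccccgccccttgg
Igtp, chr11:58199482-58199555, plus strand: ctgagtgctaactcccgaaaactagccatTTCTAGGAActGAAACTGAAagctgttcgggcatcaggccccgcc
Tgtp2, chr11:49064243-49064322, minus strand: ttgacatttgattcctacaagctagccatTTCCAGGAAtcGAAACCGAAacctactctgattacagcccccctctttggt

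The 8 members had 9 promoters in the table, because Gbp3 had a pair of start sites. The ISRE core was in 8 of the 9 and in 8.56% of the 32851 promoters in the RefSeq table, and the other start site of Gbp3 held neither motif. GAS matches were found in 5 of the 9 (Gbp5, Gbp7, Irgm2, Igtp and Tgtp2), against 8.30% of all promoters, and these 5 held both motifs, against 1.07%. In Irgm2, Igtp and Tgtp2 the GAS match began 11 bases before the ISRE core match. In Gbp7 the distance was 35 bases, and the GAS matches of Gbp5 lay outside the stretch shown. In Gbp3 and Irgm1 the capitals are 2 ISRE core matches that overlap. Igtp and Irgm2 are close relatives here, with 72.8% of aligned promoter positions identical when gaps were counted. A match is a description of these letters and does not show that a factor was bound.

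Some members could not be told apart from their relatives by 3′ reads alone. Of the windows of 90 bases in the last 500 bases of Tgtp2 transcripts, 65.9% occurred identically in Tgtp1 or Gm12185, and the counts of Tgtp2 are therefore uncertain. The share was 6.08% for Gbp4 and 0.375% for Gbp3, and it was 0 for the other members. Igtp and Irgm2 shared no such window, although their annotated spans overlap on the same strand. The span of Gbp4 also overlaps Gbp8 and Gbp9 on the same strand, and that of Gbp7 overlaps Gm43802. The part of these overlaps in the counts was not tested.

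The summed level of the 10 genes was higher in the cmExoaCD11b library in each of the 7 classes under the settings used throughout. By size of the ratio of cmExoaCD11b to PBS, monocytes were first at 5.32 (interval 4.43 to 6.42), then macrophages at 2.95 (2.73 to 3.20), neutrophils at 2.39 (2.30 to 2.47) and CD8 T cells at 2.05 (1.78 to 2.36). B cells at 1.84 (1.46 to 2.33), CD4 T cells at 1.40 (1.22 to 1.61) and other T cells at 1.22 (0.991 to 1.51) stayed under the 2-fold rule. The interval of other T cells alone included 1. With cells taken by ranked UMIs only, the direction turned in CD4 T cells (0.953) and other T cells (0.923). CD8 T cells fell under 2-fold there (1.51), as a mean over cells (1.98) and when scaled by the median ratio of all genes (1.96).

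In PBS the order of levels was set by the T cells. CD4 T cells had 557 CPM, other T cells 509 CPM, CD8 T cells 331 CPM, macrophages 260.2 CPM, neutrophils 113 CPM, B cells 89.1 CPM and monocytes 79.2 CPM. Only CD4 and other T cells, and B cells and monocytes, were neighbors with overlapping counting intervals. In cmExoaCD11b the first 4 classes lay close together, with CD4 T cells at 779 CPM, macrophages at 768 CPM, CD8 T cells at 678 CPM and other T cells at 622 CPM, and each interval overlapped that of the class above it. Monocytes followed at 421 CPM, neutrophils at 269 CPM and B cells at 164 CPM. Macrophages thus moved from the fourth place to the second, and monocytes from the last to the fifth.

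**Figure D1:**
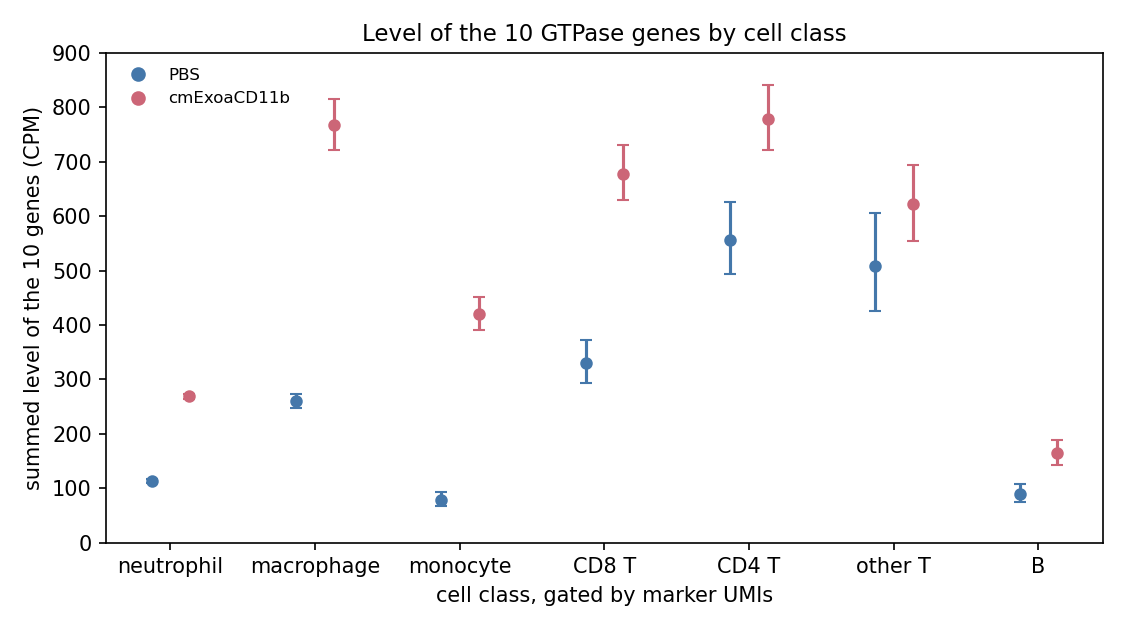
Summed level of the 10 genes in CPM (vertical axis) in 7 cell classes of the PBS and cmExoaCD11b libraries; points are 1 library each and bars are exact 95% Poisson intervals of the count. Macrophages went from 260.2 to 768 CPM and monocytes from 79.2 to 421 CPM, and the intervals of other T cells overlap.

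The summed level was carried unevenly by single cells. In monocytes the 10 cells with most member UMIs held 69 of 138 UMIs in PBS and 327 of 736 UMIs in cmExoaCD11b. In macrophages they held 389 of 1498 and 367 of 1054 UMIs, and in neutrophils 400 of 3891 and 535 of 12188. The counting intervals of the monocytes are accordingly narrower than the spread between cells.

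A member was called higher at a ratio of at least 2 and lower at a ratio of at most 0.5, where it had at least 20 UMIs over both libraries in the class. Of the 70 pairs of member and class, 66 reached 20 UMIs, and of these 43 were higher, 1 was lower and 22 were neither. The 4 pairs below 20 UMIs all belonged to Tgtp2, in macrophages, monocytes, other T cells and B cells. The ratio exceeded 1 in 63 of the 66 pairs, and the counting interval lay above 1 in 46 and below 1 in 1.

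Among neutrophils all 10 members were higher and none was lower, where 5.20% of the 13987 genes tested were higher and 6.38% lower. Among macrophages 9 of 9 were higher, against 4.42% of all genes higher and 8.29% lower. Among monocytes 9 of 9 were higher, against 4.94% higher and 5.62% lower. The monocyte calls of Gbp4 (4 and 19 UMIs) and Iigp1 (4 and 17 UMIs) rested on few PBS UMIs. As a mean over cells these genes gave 1.93 and 1.20, short of the 2-fold rule. Among CD8 T cells 6 of 10 were higher, against 6.41% higher and 5.47% lower. Among CD4 T cells 2 of 10 were higher, against 5.80% higher and 2.24% lower, and among other T cells 1 of 9, against 8.62% higher and 3.85% lower. Among B cells 6 of 9 were higher and 1 was lower, against 2.79% higher and 4.04% lower. The counts of members exceeded these shares most clearly in the 3 myeloid classes, and those of CD4 and other T cells came nearest to them. The median of the log2 ratio over all genes tested was at most 0.0967 from 0 in each of the 7 classes.

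**Figure D2:**
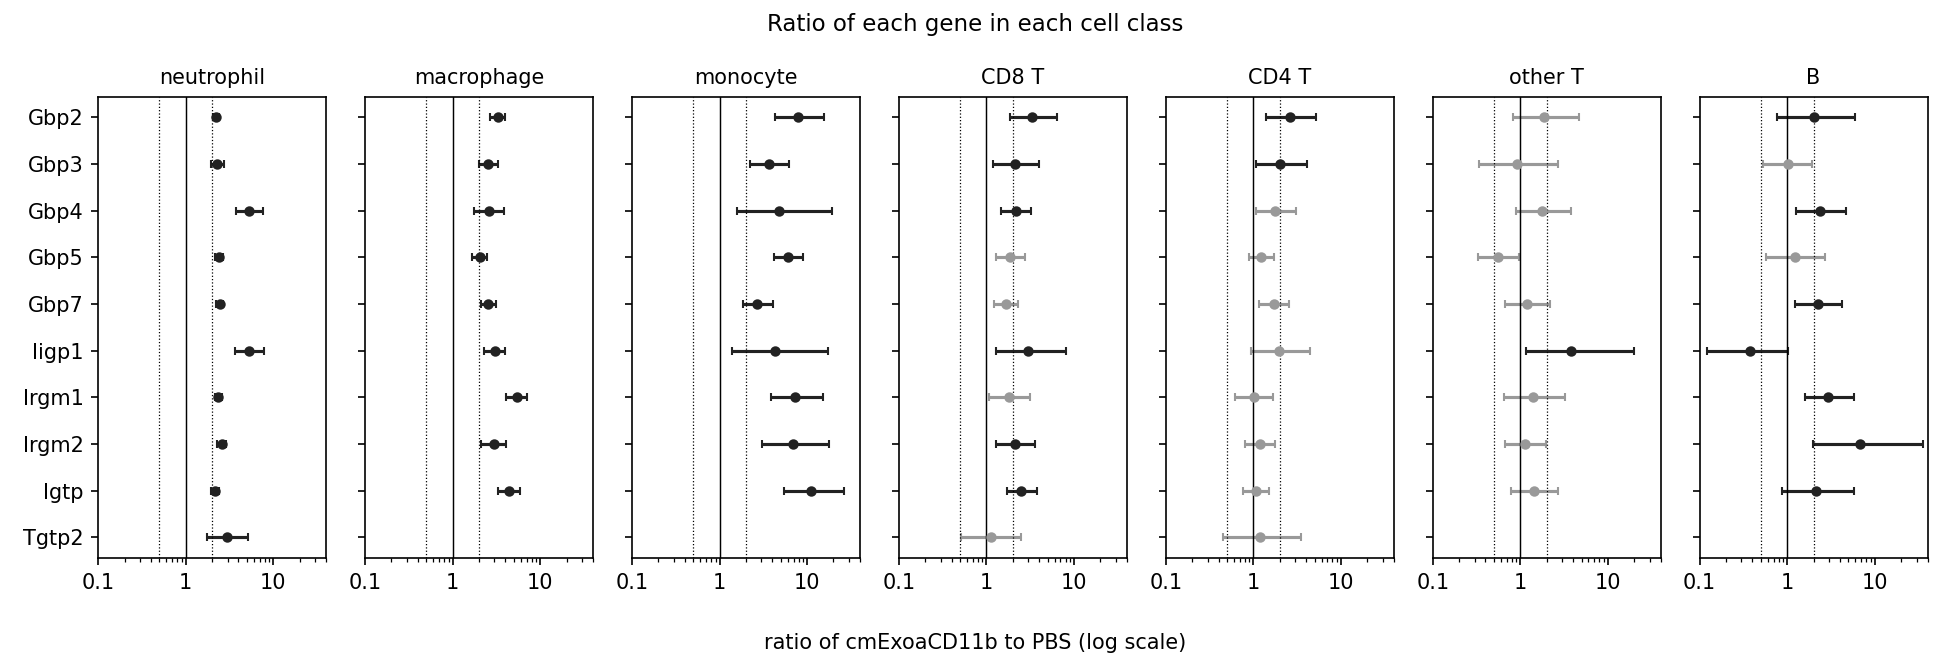
Ratio of the level in cmExoaCD11b to that in PBS (horizontal axis, log scale) for each of the 10 genes in 7 cell classes, with exact 95% conditional intervals for counting error; black points passed the 2-fold rule, grey ones did not, pairs with fewer than 20 UMIs are left out, and dotted lines mark 0.5 and 2. All points of neutrophils, macrophages and monocytes lie at or beyond 2, and the only point below 0.5 is Iigp1 in B cells.

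Among the GBPs, Gbp2, which coats vacuoles of intracellular parasites, was higher in 6 of 7 classes. Its level was 45.0 CPM in PBS and 146 CPM in cmExoaCD11b macrophages (ratio 3.26, 2.69 to 3.93). In monocytes it was 6.89 and 53.8 CPM (7.81, 4.27 to 15.6), a ratio of 2.80 with no doublets removed, 3.21 as a mean over cells and 56.5 with free RNA subtracted. For the last value the largest amount that free RNA could supply was subtracted, which was most of the 6.89 CPM in PBS. In CD8 T cells it was 18.1 and 60.2 CPM (3.33, 1.87 to 6.31). Gbp2 was also 1 of the 2 members that passed the rule in CD4 T cells, where the levels were 25.6 and 66.5 CPM (2.60, 1.41 to 5.18). Other T cells fell just short at 1.86 (0.831 to 4.68).

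Gbp5, a GBP tied to assembly of the NLRP3 inflammasome, had the widest span of ratios within its family. It was at 19.5 CPM in PBS and 118 CPM in cmExoaCD11b monocytes, a ratio of 6.04 (4.19 to 8.96). These UMIs were in 8 of 148 PBS and 28 of 138 cmExoaCD11b monocytes. The ratio was 1.34 under the stricter gate, short of the 2-fold rule, and 22.6 in cells thinned to 1000 UMIs. In the thinned cells Gbp5 was found in 1 of 141 PBS and 9 of 137 cmExoaCD11b monocytes, so 22.6 rests on 1 PBS cell. In neutrophils the levels were 13.6 and 32.5 CPM (2.38, 2.15 to 2.65), and in macrophages 54.7 and 112 CPM (2.05, 1.68 to 2.49). The macrophage ratio fell short of the 2-fold rule in several alternatives, with 1.29 under the stricter gate and 1.54 in thinned cells. In T cells the pattern was another one. CD8 T cells gave a ratio of 1.86 (1.29 to 2.72) and CD4 T cells 1.23 (0.887 to 1.71). In other T cells the level was 115 CPM in PBS and 64.9 CPM in cmExoaCD11b. That ratio of 0.563 (0.331 to 0.961) did not reach the 2-fold rule. It rested on 29 and 33 UMIs, held by 7 of 51 and 21 of 109 cells, so the share of cells ran the other way.

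Gbp4 had few UMIs in neutrophils, 38 in PBS and 264 in cmExoaCD11b, yet the highest ratio there at 5.29 (3.75 to 7.64), beside Iigp1 at 5.28. With the upper limit of free RNA subtracted these became 36.9 and 16.9, where that limit was most of the PBS level of each gene. The stricter gate gave 3.99 and 2.95. In CD8 T cells it was at 43.4 and 93.2 CPM (2.15, 1.45 to 3.25). Gbp3 was higher in 5 classes, with 29.9 and 76.5 CPM in macrophages (2.56, 1.99 to 3.28), and it gave ratios of 1.01 (0.532 to 1.91) in B cells and 0.919 (0.341 to 2.72) in other T cells. Gbp7, a GBP linked to oxidant production at phagosomes, was higher in 4 classes and had the smallest range of ratios of the GBPs, from 1.18 (0.667 to 2.18) in other T cells to 2.69 (1.83 to 4.04) in monocytes.

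Among the regulatory IRGs, Igtp was at 4.59 CPM in PBS and 50.9 CPM in cmExoaCD11b monocytes, a ratio of 11.1 (5.39 to 26.5) that rested on 8 and 89 UMIs. It was 5.30 with no doublets removed, 6.80 under the stricter gate (5 UMIs and a share of 0.8) and 35.8 with free RNA subtracted. The upper limit of free RNA subtracted there was most of the 4.59 CPM in PBS. Irgm1, also needed for the survival of hematopoietic cells, gave 7.25 (3.84 to 15.1) and Irgm2 6.83 (3.07 to 17.9) in the same cells. In macrophages Irgm1 led the members, at 16.3 and 88.2 CPM (5.40, 4.09 to 7.15), followed by Igtp at 17.0 and 75.1 CPM (4.41, 3.31 to 5.87). The ratios of Irgm1 and Igtp were near 1 in CD4 T cells, with 53.1 and 53.7 CPM for Irgm1 (1.01, 0.615 to 1.69) and 106 and 113 CPM for Igtp (1.06, 0.756 to 1.51). These intervals leave room for a difference of up to 1.69-fold. In neutrophils the ratios of Igtp (2.16) and Irgm1 (2.36) were below the median of the members, 2.41, and that of Igtp was 1.75 in thinned cells.

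The effector Iigp1 was higher in 5 classes, with 22.6 and 68.5 CPM in macrophages (3.03, 2.30 to 3.99, and 1.49 in thinned cells) and 0.928 and 4.90 CPM in neutrophils (5.28, 3.64 to 7.91). It was the single member that passed the rule in other T cells, on 3 and 23 UMIs (3.79, 1.15 to 19.7). In B cells Iigp1 was the single member called lower, on 16 UMIs in PBS and 6 in cmExoaCD11b (0.378, 0.121 to 1.02), and the interval reached past 1. The 16 UMIs were in 2 of 250 cells and the 6 in 3 of 261, so the call rests on 2 PBS cells and the share of cells ran the other way. Tgtp2 was counted in few cells, 60 in PBS and 183 in cmExoaCD11b, and was higher in neutrophils (19 and 73 UMIs, 2.93, 1.75 to 5.13), with 5.71 in thinned cells and 13 with free RNA subtracted. The upper limit of free RNA subtracted there was most of its 0.551 CPM in PBS.

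Summed by family, the IRGs and the GBPs gave like ratios over all neutrophils, 2.42 (2.28 to 2.56) and 2.37 (2.26 to 2.48), though not in each of the neutrophil subsets described below. In macrophages the IRGs gave 3.88 (3.37 to 4.46) and the GBPs 2.58 (2.34 to 2.85), and in monocytes 7.97 (5.44 to 12.1) and 4.58 (3.71 to 5.69). CD4 T cells went the other way, with 1.16 (0.943 to 1.43) for the IRGs and 1.63 (1.35 to 1.99) for the GBPs. The intervals of the families did not overlap in macrophages and overlapped slightly in monocytes and CD4 T cells.

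Neutrophils made up 74.3% of PBS cells and 70.2% of cmExoaCD11b cells, and they were not of one kind. Cells in which Ltf, Camp and Ngp, genes of the secondary granules made in the bone marrow, held at least 0.5% of UMIs were taken as immature. They were 25.2% of PBS and 42.9% of cmExoaCD11b neutrophils. Immature neutrophils had the lower member level, 29.2 CPM in PBS and 139 CPM in cmExoaCD11b, a ratio of 4.77 (4.38 to 5.21). The other neutrophils had 230 CPM and 636 CPM, a ratio of 2.77 (2.66 to 2.88). Because the subset with the lower level had a larger share in cmExoaCD11b, the ratio over all neutrophils, 2.39, was smaller than in either subset. The members differed between the subsets. Summed by family, the IRGs gave 4.94 (4.36 to 5.63) and the GBPs 4.62 (4.11 to 5.22) in immature neutrophils. In the other neutrophils the IRGs gave 2.52 (2.36 to 2.70) and the GBPs 2.92 (2.77 to 3.07), and these intervals did not overlap. Gbp2 gave 4.94 (4.06 to 6.08) in immature and 2.72 (2.51 to 2.95) in other neutrophils, Irgm1 gave 4.86 (3.89 to 6.12) and 2.52 (2.24 to 2.83), and Igtp 4.96 and 2.03, whereas Iigp1 gave 3.69 (1.65 to 9.73) and 8.70 (5.71 to 13.8).

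Cells were further split by whether they held a UMI of any of 8 type I interferon effector genes (Ifit1, Ifit2, Ifit3, Isg15, Rsad2, Oasl1, Usp18 and Ifi44), after each cell had been thinned to 1000 UMIs. The share of neutrophils with such a UMI was 24.5% in PBS and 49.2% in cmExoaCD11b. In these cells the members summed to 595 and 932 CPM (1.57, 1.44 to 1.71), and in neutrophils without one to 93.3 and 139.9 CPM (1.5, 1.28 to 1.75). The share of macrophages with an effector UMI was 34.9% and 79.4%, and their member level was 517 and 815 CPM (1.58, 1.15 to 2.17). Macrophages without one had 53 and 7 member UMIs (1.33, 0.510 to 2.94). In monocytes the ratio was 5.46 (2.02 to 20.7) with an effector UMI, on 4 and 58 member UMIs. It was 4.98 (1.85 to 15.5) without one, on 6 and 16 member UMIs. Over the whole class at the same depth it was 2.45 in neutrophils, 2.31 in macrophages and 7.62 in monocytes, above both subsets in each. In CD8 T cells the ratio was 2.64 (1.48 to 5.13) in cells with an effector UMI and 1.09 (0.583 to 2.07) in those without. Other T cells gave 2.74 (1.31 to 6.63) with and 0.549 (0.248 to 1.20) without one, and in PBS their level was lower with an effector UMI (348 CPM) than without (593 CPM). The PBS B cells with an effector UMI, 17 in number, held 0 member UMIs, and the 216 without held 17. The split is a description, since effector UMIs and member UMIs come from the same cells.

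**Figure D3:**
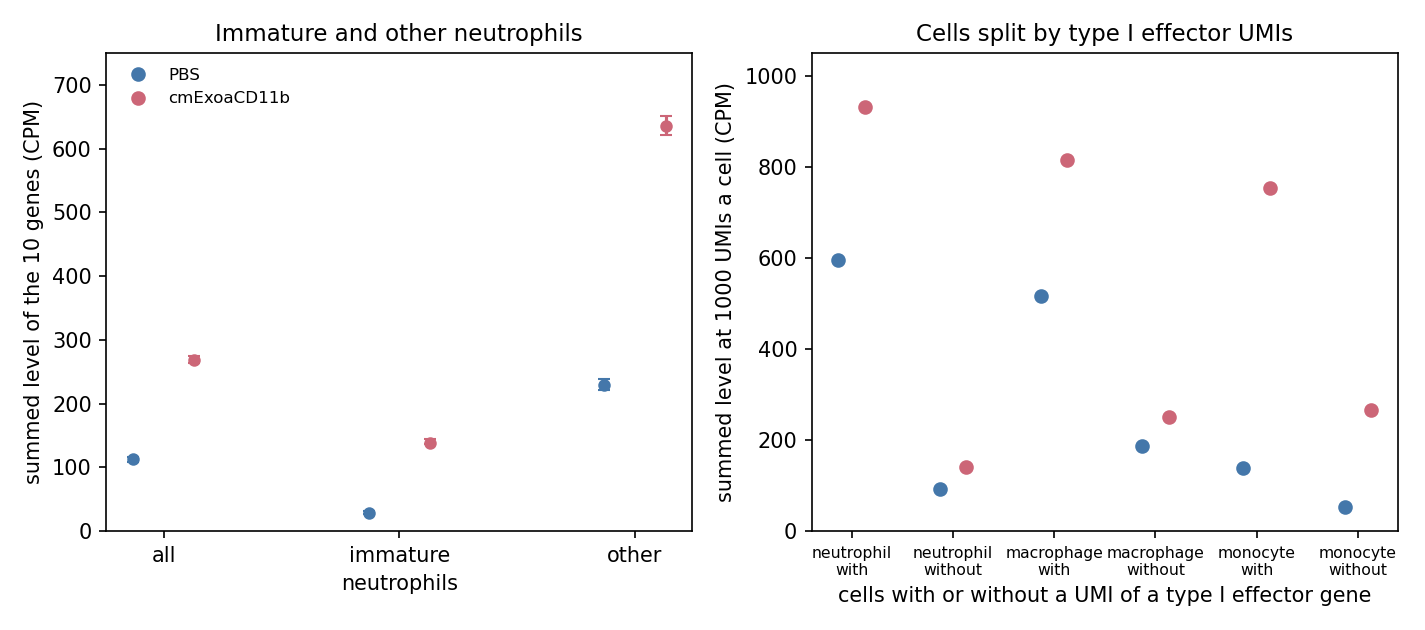
Summed level of the 10 genes in CPM (vertical axes) for PBS and cmExoaCD11b; the left panel gives all, immature and other neutrophils with exact 95% Poisson intervals, and the right panel gives neutrophils, macrophages and monocytes with or without a UMI of 8 type I effector genes, each cell thinned to 1000 UMIs, without intervals. Immature neutrophils (29.2 and 139 CPM) lie under the other neutrophils (230 and 636 CPM), and cells with an effector UMI lie above those without one in each class and library shown. The PBS monocyte points rest on 4 member UMIs with and 6 without an effector UMI.

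Within CD8 T cells a granzyme UMI marked 49.5% of PBS and 71.6% of cmExoaCD11b cells at 1000 UMIs. The members stood at 417 and 748 CPM in cells with a granzyme UMI (1.80, 1.10 to 3.07) and at 245 and 558 CPM in cells without one (2.28, 1.13 to 4.90). Arg1, the arginase of tumor-conditioned macrophages, marked 52.7% and 26.5% of macrophages. The member UMIs were 59 and 18 in cells with an Arg1 UMI (ratio of levels 1.93, 1.07 to 3.32) and 72 and 77 in the others (2.19, 1.57 to 3.07). The ratios of these paired subsets had overlapping intervals.

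The share of cells with a UMI of any member was compared at equal depth, after each cell had been thinned to 1000 UMIs and shallower cells had been left out (254 and 322 neutrophils, and at most 17 cells in each other class and library of the 7). Neutrophils with one were 581 of 4825, a share of 12% (11.1 to 13), in PBS and 1151 of 4644, a share of 24.8% (23.5 to 26.1), in cmExoaCD11b. The share was 18.7% (15.1 to 22.7) and 41.2% (32.8 to 49.9) in macrophages, and 7.09% (3.45 to 12.7) and 33.6% (25.7 to 42.1) in monocytes. B cells had 6.87% and 14.5%. The intervals of B cells and those of CD8 T cells, at 24.7% (16.5 to 34.5) and 41.5% (34.3 to 49.0), overlapped slightly, and those of CD4 T cells, 38.2% and 50.7%, and other T cells, 28.0% and 38.0%, overlapped widely. With cells taken by ranked UMIs only, the share of CD8 T cells with one was lower in cmExoaCD11b than in PBS. Without thinning the shares were 28.5% and 55.6% in neutrophils, 61.2% and 79.3% in macrophages and 40.5% and 73.9% in monocytes. UMIs of 2 or more members were found in 0 of 141 PBS monocytes and in 6.57% (3.05 to 12.1) of 137 cmExoaCD11b monocytes. With 3 counts taken as the limit for a count of 0, not an exact interval, the PBS share with such UMIs at this depth could reach 2.13%. Without thinning, UMIs of 2 or more members were found in 20 of 148 PBS and 69 of 138 cmExoaCD11b monocytes.

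**Figure D4:**
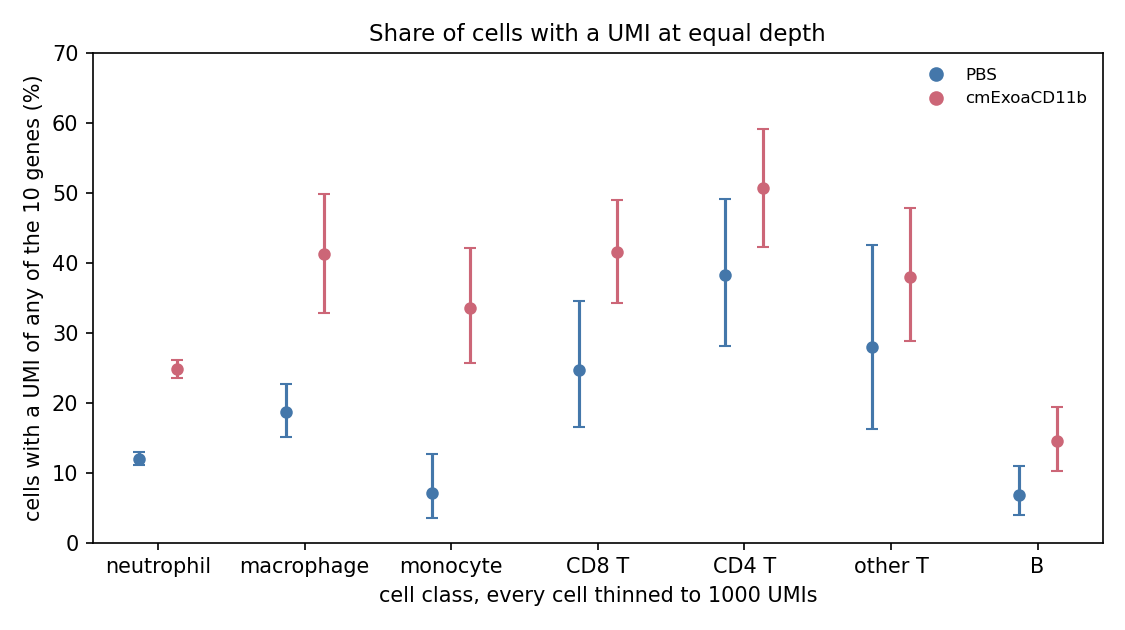
Share of cells with a UMI of any of the 10 genes (vertical axis, percent) in 7 cell classes of the PBS and cmExoaCD11b libraries, each cell thinned to 1000 UMIs, with exact 95% Clopper-Pearson intervals. The intervals of the libraries stand apart in neutrophils, macrophages and monocytes and overlap in CD4 and other T cells.

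Free RNA carried the members too. In empty droplets, those with at most 100 UMIs, they summed to 170.1 CPM in PBS and 369 CPM in cmExoaCD11b, a ratio of 2.17 (1.97 to 2.40). No class of these cells is known to lack the genes, so no class gives a pure background. B cells had the lowest shares with a UMI at 1000 UMIs per cell, and their shares bound what free RNA gave there. The largest share of UMIs that free RNA could supply, from genes of other classes, was 13.7% and 4.21% in neutrophils, 5.14% and 3.36% in macrophages and 15.7% and 17.1% in monocytes. For the members this comes to at most 26.8 of 79.2 CPM in PBS monocytes and 63.2 of 421 CPM in cmExoaCD11b monocytes. With free RNA subtracted the ratio of monocytes was 6.87 and that of neutrophils 2.55.

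The markers within the gates differed between libraries. In the macrophage gate the 12 phagocyte markers, all with UMIs in both libraries, summed to 23969.6 CPM in PBS and 12561.8 CPM in cmExoaCD11b, and Ly6c2 was at 55.8 and 232 CPM. The phagocyte markers summed to 5146.0 and 3995.4 CPM in monocytes and to 480.4 and 212 CPM in neutrophils. The part of these differences in the ratios of the members was not tested. Markers of T and NK cells were higher in the cmExoaCD11b library within the macrophage gate. The 4 T markers (Cd3e, Cd3d, Cd3g and Trac), each with UMIs in both libraries, summed to 127 CPM in PBS and 252 CPM in cmExoaCD11b macrophages. The 4 NK markers summed to 7.29 and 35.0 CPM, and Ifng, the gene of interferon gamma made by T and NK cells, stood at 9.73 and 111 CPM. A T or NK marker UMI was present in 15.8% of PBS and 23.6% of cmExoaCD11b macrophages. In neutrophils the T markers summed to 14.4 and 21.2 CPM and the NK markers to 0.986 and 3.07 CPM, and 6.73% and 12.6% of cells held a UMI of one. Without those cells the ratio of the summed members was 3.15 in macrophages, 6.05 in monocytes, 2.38 in neutrophils and 1.76 in B cells, against 2.95, 5.32, 2.39 and 1.84 with them.

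The other genes of both families were counted alongside. Of 12 further genes listed, 11 were in the files and Gbp11 was not. In neutrophils 7 of 8 with at least 20 UMIs were higher, in macrophages 3 of 8, in monocytes 2 of 5, in CD8 T cells 2 of 5, in B cells 2 of 5, and in CD4 and other T cells 0 of 5 and 0 of 4, with none lower. Of all genes tested, 5.20%, 4.42%, 4.94%, 6.41%, 2.79%, 5.80% and 8.62% were higher in these classes, in the same order. Between 2.24% and 8.29% were lower. Ifi47, an IRG of the effector group, was at 21.0 CPM in PBS and 165 CPM in cmExoaCD11b macrophages (7.84, 6.26 to 9.85) and at 9.75 and 80.1 CPM in monocytes (8.21, 4.95 to 14.5). Irgc1, an IRG gene best known from testis, gave 1.00 (0.810 to 1.24) in neutrophils.

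The lists of interferon pathway genes were set beside the members. The type I list of 15 genes had a median ratio of 2.46 in neutrophils, 3.62 in macrophages and 5.86 in monocytes, where the members had 2.41, 2.94 and 6.04. The type II list of 22 genes had 1.47, 1.36 and 1.78, and all genes tested 1.07, 0.987 and 1.05. In CD8 T cells the medians were 2.14 for the members, 2.49 for the type I list and 1.46 for the type II list, and in B cells 2.14, 2.76 and 1.12. CD4 T cells gave 1.46, 1.69 and 1.08, and other T cells 1.39, 1.20 and 0.980. The classes share the same 2 libraries, the lists differ in makeup, and the part of either interferon was not tested. The type I list also holds the receptor chains Ifnar1 and Ifnar2. The type II list also holds receptors and kinases of the pathway, which are not all induced by it.

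Single genes of the type II list separated. Among those that lay with the members in macrophages were Nlrc5, the activator of MHC class I genes (38.4 and 110.0 CPM, 2.87, 2.32 to 3.54) and Tap1, a peptide transporter (65.7 and 139 CPM, 2.12, 1.77 to 2.53). Cxcl9, a chemokine that answers mainly to interferon gamma, stood at 43.1 and 38.6 CPM (0.897, 0.653 to 1.21), and Ciita, the activator of MHC class II genes, at 18.8 and 24.8 CPM (1.32, 0.871 to 1.96). In macrophages 7 of 21 tested genes of the type II list were higher and 0 lower, and of the type I list 12 of 14 were higher and 0 lower. Of all genes tested there, 4.42% were higher and 8.29% lower. In monocytes Cxcl9 was at 1.72 and 12.6 CPM, on 3 and 22 UMIs (7.31, 2.20 to 38.1).

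The ligands were read in the same cells. Ifnb1, the gene of interferon beta, was at 67.2 CPM in PBS and 172 CPM in cmExoaCD11b macrophages (2.56, 2.17 to 3.02) and at 8.61 and 137 CPM in monocytes (15.9, 9.48 to 28.9). Ifng was at 625 and 674 CPM in CD8 T cells (1.08, 0.961 to 1.21), at 382 and 468 CPM in CD4 T cells (1.23, 1.03 to 1.46) and at 334 and 647 CPM in other T cells (1.94, 1.52 to 2.49). Its receptor chain Ifngr1 was at 193 and 227 CPM in macrophages (1.17, 1.03 to 1.33) and at 779 and 487 CPM in CD4 T cells (0.624, 0.543 to 0.718). Ifng is given as a level within a class, and CD8 T cells made up 1.42% of PBS and 2.59% of cmExoaCD11b cells. The shares were 1.30% and 2.04% for CD4 T cells and 0.746% and 1.54% for other T cells. Of the 5 genes of the IL-12 list, 2 were higher and 1 lower in neutrophils, 1 of 4 higher and 1 lower in macrophages, 1 of 3 higher in CD8 T cells and none in the other classes. Of all genes tested, 5.20% were higher and 6.38% lower in neutrophils, 4.42% and 8.29% in macrophages, and 6.41% and 5.47% in CD8 T cells. Stat4, which carries the IL-12 signal, was at 236 and 478 CPM in CD8 T cells (2.02, 1.71 to 2.40). Il12rb2, a chain of the IL-12 receptor, was at 101 and 185 CPM (1.82, 1.40 to 2.39) in the same cells and at 226 and 128 CPM in CD4 T cells (0.567, 0.433 to 0.743). Il12b was at 11.5 CPM in PBS macrophages and 0.729 CPM, on 1 UMI, in cmExoaCD11b macrophages (0.0636, 0.00159 to 0.367).

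**Figure D5:**
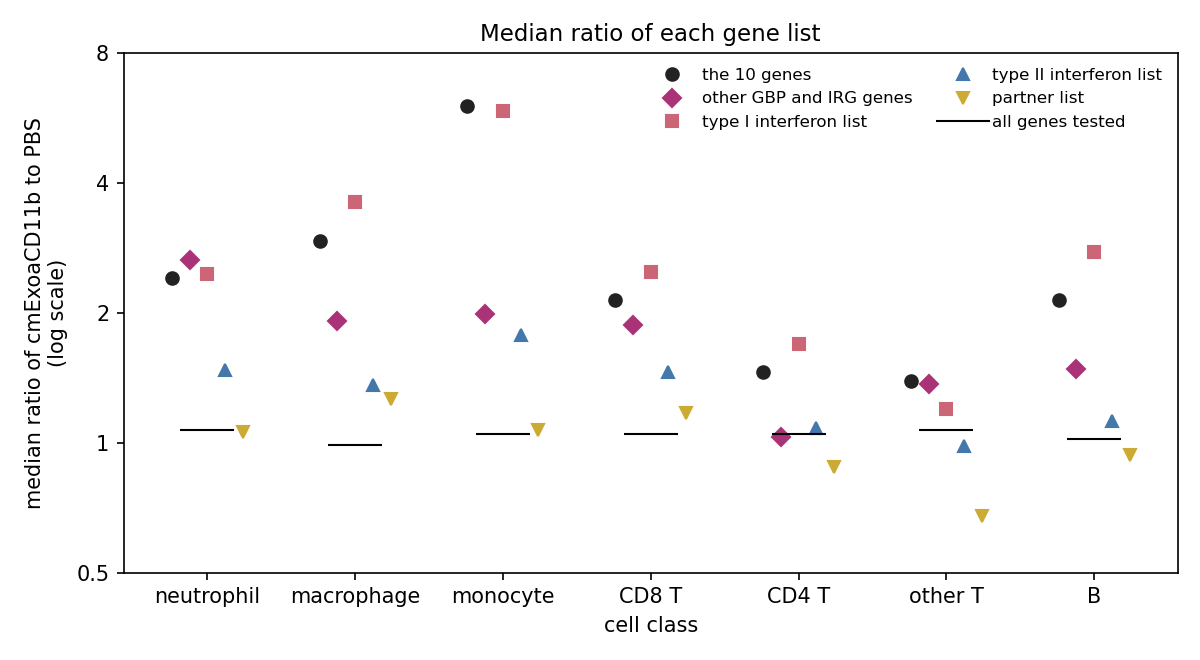
Median ratio of cmExoaCD11b to PBS (vertical axis, log scale) of the 10 genes, the other GBP and IRG genes, the type I, type II and partner lists and all genes tested, in 7 cell classes; points are medians over the genes of a list with at least 20 UMIs. In monocytes the 10 genes (6.04) and the type I list (5.86) stand above the type II list (1.78) and all genes (1.05).

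Genes whose products work with the GTPases had medians from 0.678 in other T cells to 1.26 in macrophages, where all genes tested had 1.07 and 0.987. Of 9 such genes, 1 of 9 was higher in macrophages, 1 of 8 in CD8 T cells and 1 of 8 in CD4 T cells, none in the other classes, and none was lower in any class. Of all genes tested, 4.42% were higher in macrophages, 6.41% in CD8 T cells and 5.80% in CD4 T cells, and 8.29%, 5.47% and 2.24% were lower. Casp1, an inflammasome caspase, was at 33.9 and 68.5 CPM in macrophages (2.02, 1.56 to 2.60). Casp4, the caspase that senses lipopolysaccharide, was at 32.5 and 80.6 CPM in CD8 T cells (2.48, 1.59 to 3.98) and at 112 and 159 CPM in neutrophils (1.42, 1.36 to 1.47). Aim2, a sensor of cytosolic DNA whose activation GBPs assist, was at 65.8 and 43.5 CPM in neutrophils (0.662, 0.623 to 0.704).

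Over the 14 combinations of class and library, the genes outside both families whose log2(CPM + 1) followed that of the summed members most closely, of 10817 with at least 200 UMIs, were Ifit2 (Pearson r = 0.976), Herc6 (0.974), Ifit3b (0.927), Olfr56 (0.921) and Ifit1bl1 (0.908). The points share 2 libraries and their depth, so these values are descriptions. Olfr56 spans Ifi47 on the same strand and Tgtp1 and Tgtp2 on the opposite strand in the annotation, and its counts may hold reads of that IRG. Each member was also set against the sum of the other 9, and r ran from 0.742 for Gbp2 to 0.958 for Gbp7.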

How the data were processed

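Droplet libraries of PBS and cmExoaCD11b (1 each, 3 pooled mice) were read from the UMI counts that the authors deposited, neither normalized nor filtered, with empty droplets included. The file headers name Cell Ranger 7.1.0 and the methods of the paper another version. The genome build is not given in the sources used here. The barcodes numbered 644248 and 723594, and UMIs 67143628 and 81288480.

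Cells were barcodes above a ranked-UMI cut-off (99th percentile of the top 3000, divided by 10), or with at least 500 UMIs and a multinomial test against droplets of at most 100 UMIs at a false discovery rate of 0.01 (10000 simulations). Cells with fewer than 200 genes or over 20% of UMIs from mitochondrial genes were dropped. Scrublet marked 0 doublets by its own threshold, so the highest scores, 0.8% per 1000 cells, were removed (421 and 453 cells). Marker gates then gave the classes.

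CPM were UMIs summed over a class. Intervals were exact Poisson, conditional (ratios) and Clopper-Pearson. Interval code was tested on Poisson counts drawn from the class means (93.0% to 99.0% of intervals held the true ratio of 200 changed genes). The intervals assume the same model, so this checks the code and not the unequal spread of UMIs over cells. The genes named were the 10 members, fixed lists and the 5 most similar genes. Members and lists were chosen with earlier results of these data known. Alternatives are given in the closing section. Python 3.11.15, numpy 2.4.6, scipy 1.17.1 and scanpy 1.11.5 were used.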

Additional observations from a re-analysis of the deposited data

Results flagged for a closer look

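Gbp5 had a ratio of 0.563 in other T cells with an interval below 1, while its interval lay above 1 in 4 other classes. The 29 PBS UMIs were in 7 of 51 cells and the 33 cmExoaCD11b UMIs in 21 of 109. The share of cells thus ran the other way. The difference between classes was not tested.

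Outside the classes compared, the 10 genes together were higher in cmExoaCD11b in empty droplets (ratio 2.17), in ungated cells (1.75, from 284 to 496 CPM), in plasma cells (2.18, 38 and 131 cells), in the epithelial gate (3.11, 34 and 26 cells) and in the stromal gate (12.5, on 5 and 7 cells with 9 and 156 UMIs).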

How the results depend on the processing

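With 1 library per treatment there was no replicate to leave out. No paired analysis was possible because no mouse is in both libraries and no result comes from a test. An alternative value was taken as moved when it lay outside the counting interval of the reported value. The ranked-UMI cut-off alone kept the deepest cells and gave summed ratios of 3.51 in neutrophils, 1.51 in CD8 T cells, 0.953 in CD4 T cells and 0.923 in other T cells, and it turned Gbp3 (0.810) and Irgm2 (0.816) in CD8 T cells. The mean over cells gave 2.52 in neutrophils, 4.23 in monocytes, 1.69 in CD4 T cells and 1.53 in other T cells. The stricter gate gave 2.53 in macrophages, 3.25 in monocytes, 2.52 in CD8 T cells and 1.28 in B cells. Thinned cells gave 2.31 in macrophages and 7.62 in monocytes. Monocytes gave 4.05 with no doublets removed and 6.87 with free RNA subtracted, and neutrophils 2.55 with free RNA subtracted, 2.23 when scaled by the median of all genes, 2.77 without immature cells and 4.77 in these alone. The cause was not tested, apart from the subset of cells each setting leaves.

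The 43 pairs called higher became 13 in thinned cells, where few reached 20 UMIs, and 12 at 4-fold. The 1 pair called lower, Iigp1 in B cells, became 2 with no doublets removed or at 1.5-fold, and 0 under the stricter gate, in thinned cells, at 4-fold or with at least 50 UMIs. Of 560 values of single members under the alternatives, 499 stayed within the counting interval, 59 did not and 2 reversed. In 83 the call changed or the value moved by over 1.5 times. Calls near 2 were among those lost, as for Gbp3 in CD4 T cells (2.01, and 1.48 under the looser gate) and Gbp2 in B cells (2.02, and 1.13 as a mean over cells).

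Without thinning, the shares of cells with a member UMI in PBS and cmExoaCD11b were 28.5% and 55.6% in neutrophils, 61.2% and 79.3% in macrophages, 40.5% and 73.9% in monocytes, 77.3% and 83.6% in CD8 T cells, 82.0% and 89.6% in CD4 T cells, 76.5% and 76.1% in other T cells and 27.2% and 47.1% in B cells. Under that cut-off on ranked UMIs they were 4.50% and 12.5% in neutrophils, 51.9% in cmExoaCD11b macrophages and 2.30% in PBS monocytes. In CD8 T cells they were 39.6% and 24.4% under it, against 24.7% and 41.5%, so the direction turned. With no doublets removed they were 26.1% in neutrophils and 25.2% in monocytes of cmExoaCD11b, against 24.8% and 33.6%. The fewest member UMIs in a class and library of the 7 were 117 in B cells, 128 in other T cells and 138 in monocytes, all in PBS.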

Other observations

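Cells of the epithelial gate, which carried high Xist and little Ddx3y, held the effector Iigp1 at 23.2 CPM in PBS and 101 CPM in cmExoaCD11b (ratio 4.36, 2.74 to 7.11) and Gbp2 at 17.1 and 86.7 CPM (5.06, 2.98 to 8.91), while Gbp5 had 0 and 2 UMIs. The cells with a UMI did not increase in step, with Iigp1 in 7 of 34 and 5 of 26 cells, Gbp2 in 9 and 5, and any member in 64.7% and 61.5%. In the same gate H2-Aa, an MHC class II gene, had 7 and 325 UMIs and Cst3 was at 289.8 and 993 CPM. Gbp7 had 19 and 7 UMIs there (0.677, 0.241 to 1.68). In plasma cells Igtp was at 15.8 and 54.6 CPM (3.45, 2.04 to 6.29) and Gbp5 at 17.9 and 20.5 CPM (1.15, 0.667 to 2.08).

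Dendritic cells numbered 9 in PBS and 26 in cmExoaCD11b, and the summed members were at 633 and 306 CPM (0.483, 0.339 to 0.698). Iigp1 gave 16 and 5 UMIs and Gbp5 13 and 9 UMIs, whereas Irgm1 gave 4 and 39 UMIs (55.0 and 111 CPM). The 16 Iigp1 UMIs, of 46 member UMIs in PBS, were in 1 cell and the 13 Gbp5 UMIs in 3, and the share of cells with any member was 66.7% in PBS and 84.6% in cmExoaCD11b. NK cells, 15 and 48, had 249 and 329.8 CPM (1.33, 0.723 to 2.62).

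The promoter stretches of Igtp, Irgm2 and Tgtp2 and that of Tgtp1, which is not a member, share the spacing of 11 bases from the GAS match to the ISRE core match. Their ratios in neutrophils were 2.16, 2.56, 2.93 and 2.21. Irgm1, Gbp2 and Gbp3, whose promoters held no GAS match, gave 2.36, 2.21 and 2.30. Gbp5 and Gbp7, with GAS matches at other distances, gave 2.38 and 2.43. Much of the 3′ end of Tgtp2 is shared with Tgtp1 or Gm12185, so their ratios may not be separate values. Whether the motifs bear on the ratios was not tested.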
